A study of Mus musculus with 22 samples.

Results

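Macrophages of the injured liver were followed through 10 genes, each found in the expression table by its symbol: Gpnmb, Trem2, Cd9, Lgals3, Ccr2, Cd14, Itgax, Cx3cr1, Cd68 and Ctss. All 10 had a row of their own, among 24011 genes tested. Expression was measured in total liver RNA on Affymetrix MoGene 2.0 ST arrays, with 1 array for each of 22 mice. All mice were female, on a C57BL/6J background and 12 weeks old. The 4 groups were Cyp2c70 knockout mice fed chow with 0.1% ursodeoxycholic acid (UDCA) for 7 weeks, starting when 5 weeks old (KO_UDCA, n = 6), Cyp2c70 knockout mice on regular chow (KO_chow, n = 5), wild-type mice on the same UDCA diet (WT_UDCA, n = 6) and wild-type mice on chow (WT_chow, n = 5). Cyp2c70 encodes the cytochrome P450 with which mice make muricholic acids. UDCA is a hydrophilic bile acid, and the series title names its effect on the bile duct disease and biliary fibrosis of these knockout mice as the question. The labels used here do not say how the knockout allele was made.

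The healthy liver holds resident macrophages, the Kupffer cells. After injury, blood monocytes enter the tissue through the chemokine receptor Ccr2 and mature into macrophages, some of which settle along scars and fat-laden areas. In mouse and human fibrotic liver such scar-associated cells are known by Trem2, Cd9, Gpnmb and Lgals3. Cd68 and Ctss belong to the lysosome of most macrophages, Itgax marks dendritic cells and several macrophage states, and Cx3cr1 marks monocytes and the macrophages derived from them. The markers are not exclusive: epithelial cells also express Cd9 and Lgals3, and hepatocytes can express Cd14. In whole liver RNA, more cells of a type and more RNA per cell cannot be told apart.

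The upstream promoter sequence of the genes is shown for 3 that rose on chow, as an example of what the members have in their DNA apart from their levels. The windows are the 250 bases before the annotated start, from RefSeq on build GRCm38.p6, written 5′ to 3′ along the gene's strand. Capitals mark matches on either strand to the ETS core GAGGAA, which reads TTCCTC on the opposite strand, and to the AP-1 motif TGANTCA. ETS factors such as PU.1 and the AP-1 family are regulators of macrophage genes. Trem2 stands at chr17:48346151-48346400 on the plus strand, Cd68 at chr11:69666171-69666420 on the minus strand and Gpnmb at chr6:49036268-49036517 on the plus strand.
Trem2: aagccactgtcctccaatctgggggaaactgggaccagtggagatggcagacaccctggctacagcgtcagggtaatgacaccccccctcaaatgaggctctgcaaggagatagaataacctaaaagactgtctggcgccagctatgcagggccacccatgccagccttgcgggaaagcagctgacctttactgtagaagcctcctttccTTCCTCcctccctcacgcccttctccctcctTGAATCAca
Cd68: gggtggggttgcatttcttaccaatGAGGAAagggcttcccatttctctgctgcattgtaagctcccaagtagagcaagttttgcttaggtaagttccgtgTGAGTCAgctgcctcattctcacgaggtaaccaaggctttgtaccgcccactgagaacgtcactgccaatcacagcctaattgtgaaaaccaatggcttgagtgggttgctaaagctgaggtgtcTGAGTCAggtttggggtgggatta
Gpnmb: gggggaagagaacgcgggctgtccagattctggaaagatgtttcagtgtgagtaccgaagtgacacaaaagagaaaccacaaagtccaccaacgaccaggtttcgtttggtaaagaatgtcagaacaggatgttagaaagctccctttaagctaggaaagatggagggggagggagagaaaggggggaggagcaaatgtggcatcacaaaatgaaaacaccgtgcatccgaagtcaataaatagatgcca
Trem2 had 1 match to each motif, Cd68 had 1 to the ETS core and 2 to AP-1, and Gpnmb had none to either. The search covered 9 of the 10 members. The ETS core occurred in 3 of these 9 windows and in 23.3% of all 32851 promoter windows of that length, and the AP-1 motif in 3 of 9 and in 6.75% of all. The third AP-1 window was that of Itgax. The M-box TCACGTG, the motif of the MiT/TFE factors that act on lysosomal genes, occurred in 0 of 9 and in 3.13% of all, and the letters TATAAA in 1 of 9, that of Ctss, and in 12.4% of all. A match shows that the letters are present, and does not show binding.

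All levels are log2 intensities, and changes are differences between group means in these units from limma, with standard errors (SE). A gene was called at a Benjamini-Hochberg adjusted p below 0.05 over all 24011 genes. As a check of the labels, Cyp2c70 averaged 10.65 in KO_chow against 11.49 in WT_chow, and 10.51 in KO_UDCA against 11.43 in WT_UDCA. It was lower in both knockout groups without being at the floor, and the labels do not say where the probes lie relative to the deleted part. On the first principal component of all genes, the 5 KO_chow arrays lay between 15.7 and 53.4 and the other 17 between -13.1 and -0.66. KO_chow replicates 2 and 5 had the highest values of their group, 53.4 and 51.9, so results are also given without them where that changes a call. Of 10 hepatocyte markers, which define the bulk of the tissue, limma called 0 in KO_chow against WT_chow and 0 in KO_UDCA against KO_chow (0 and 1 at an unadjusted p below 0.05), with list means from 12.10 to 12.21 over all groups.

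All 10 genes rose in KO_chow relative to WT_chow, by 0.72 to 3.02 with a median of 1.44. Over all genes the median change was -0.037, and 7.69% of genes were called higher. All 10 fell in KO_UDCA relative to KO_chow, by a median of 1.14 on the log2 scale, where 6.22% of all genes were called lower and the median over all genes was 0.0327. The KO_chow mice are shared by these comparisons, so the rise and the fall are not independent of each other. None of the 10 was called by limma in KO_UDCA against WT_UDCA, in KO_UDCA against WT_chow or in WT_UDCA against WT_chow. In those comparisons 0.0167%, 0.025% and 0% of all genes were called. At an unadjusted p below 0.05, 2 of the 10 passed in the first, 1 in the second and 0 in the third. The number of arrays limits the precision of each value. For each gene the fit also used the same variance for all 4 groups. A wide KO_chow spread therefore entered the SEs of comparisons without KO_chow mice. It also made SEs with KO_chow smaller than that group's own spread would give. With only the compared groups fitted, limma again called 0 of the 10 in KO_UDCA vs WT_UDCA, KO_UDCA vs WT_chow and WT_UDCA vs WT_chow.

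**Figure D1:**
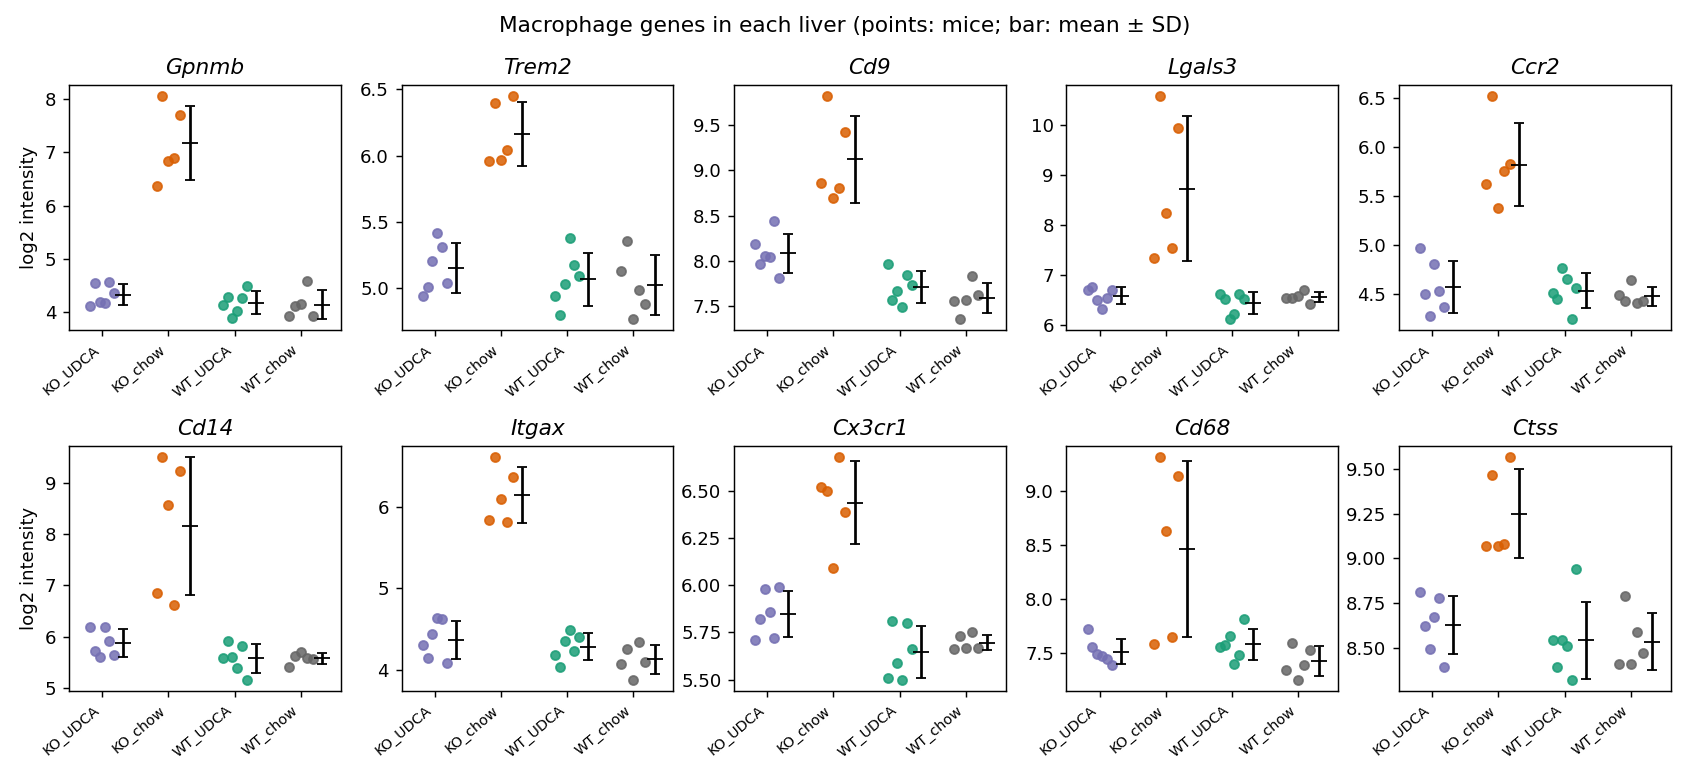
Log2 intensity (vertical axis) of the 10 macrophage genes in every mouse, with the groups KO_UDCA, KO_chow, WT_UDCA and WT_chow along the horizontal axis. Points are mice and the bar beside them is the mean ± SD (n = 6, 5, 6 and 5). The vertical scale differs between genes. In 9 genes all 5 KO_chow mice lie above every other mouse, and in Cd68 3 of the 5 do.

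Gpnmb, a transmembrane glycoprotein of lipid-loaded macrophages and lysosomes, had the largest change of the 10. Its level ran from 4.12 through a median of 4.28 to 4.57 in KO_UDCA and from 3.89 through 4.20 to 4.49 in WT_UDCA. In KO_chow the mice measured 6.36, 8.05, 6.84, 6.89 and 7.70, against 3.93, 4.11, 4.15, 4.59 and 3.94 in WT_chow. The lowest KO_chow mouse was well above the highest WT_chow mouse, and the KO_UDCA mice lay in the range of the WT_chow mice. The change in KO_chow relative to WT_chow was 3.02 (SE 0.22), which is 8.13-fold (limma adjusted p = 5.19e-09). The change in KO_UDCA relative to KO_chow was -2.84 (SE 0.21, limma adjusted p = 1.38e-08).

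Trem2 encodes a lipid-sensing receptor of macrophages. It ran from 4.94 through a median of 5.13 to 5.42 in KO_UDCA and from 4.80 through 5.06 to 5.38 in WT_UDCA. It measured 5.96, 6.40, 5.97, 6.04 and 6.45 in KO_chow, against 5.13, 5.36, 4.77, 4.99 and 4.88 in WT_chow. No KO_chow mouse overlapped the other groups, which overlapped each other. The rise on chow was 1.14 (SE 0.13, limma adjusted p = 2.84e-06) and the change in KO_UDCA relative to KO_chow was -1.01 (SE 0.13, limma adjusted p = 1.3e-05). Among 10 genes that signal with or stand beside TREM2, 2 rose on chow and 0 fell. They were Inpp5d, a phosphatase that restrains the pathway (0.58, SE 0.11), and Tyrobp, the adaptor through which TREM2 signals (0.58, SE 0.11). Both fell in KO_UDCA relative to KO_chow, and without KO_chow replicates 2 and 5 neither fall was called (limma adjusted p = 0.307 and 0.195). Of 21 alternatives, 6 ended the call of the Inpp5d fall, 3 of them by leaving out a single mouse, and 2 ended that of Tyrobp.

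Cd9, a tetraspanin of the cell surface, was the member with the largest remaining difference under UDCA. The level ran from 7.81 through a median of 8.05 to 8.44 in KO_UDCA and from 7.49 through 7.70 to 7.97 in WT_UDCA. In KO_chow the mice measured 8.86, 9.82, 8.70, 8.80 and 9.42, against 7.56, 7.36, 7.57, 7.83 and 7.62 in WT_chow. All KO_chow mice were above the others, and 4 of the 6 KO_UDCA mice lay above every wild-type mouse of either diet. The rise on chow was 1.53 (SE 0.17, limma adjusted p = 1.35e-06), and the change in KO_UDCA relative to KO_chow was -1.04 (SE 0.16, limma adjusted p = 0.000161). The difference left between KO_UDCA and WT_chow was 0.50 with a 95% interval from 0.17 to 0.83. It had an unadjusted limma p of 0.00493 and an adjusted p of 0.619, so it did not pass over all genes. Of 12 other tetraspanins, 5 rose on chow and 1 fell, against 6.03% of all genes called lower. Tspan8 rose by 3.30 (SE 0.24), Cd63 by 1.85 (SE 0.19) and Cd53, found on leukocytes, by 0.71 (SE 0.15). With KO_chow replicates 2 and 5 left out, the tetraspanin counts were 3 and 0, and Cd53 was no longer called (limma adjusted p = 0.0695).

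Lgals3 encodes galectin-3, a sugar-binding protein that activated macrophages secrete. It ran from 6.32 through a median of 6.62 to 6.77 in KO_UDCA and from 6.12 through 6.51 to 6.63 in WT_UDCA. It measured 7.35, 10.59, 8.25, 7.54 and 9.95 in KO_chow, against 6.53, 6.55, 6.58, 6.70 and 6.41 in WT_chow. The KO_chow mice were spread over more than 3 log2 units, all of them above the other groups. The SD was 1.46 in KO_chow and 0.10 in WT_chow. It rose on chow by 2.18 (SE 0.40, limma adjusted p = 0.000656), and by 1.16 when KO_chow replicates 2 and 5 were left out, which was still called. The change in KO_UDCA relative to KO_chow was -2.15 (SE 0.38, limma adjusted p = 0.00068), and the difference between KO_UDCA and WT_chow was 0.03 (95% interval -0.75 to 0.82). That interval carries the KO_chow spread through the shared variance, since the SD in KO_UDCA was only 0.17. Among 8 other galectins, Lgals1 rose on chow by 1.17 (SE 0.16), and Lgals4, a galectin of the gut epithelium, fell by 0.76 (SE 0.25, limma adjusted p = 0.047). The fall of Lgals4 was close to the threshold and lost its call under 12 of 20 alternatives, 7 of which left out a single mouse (limma adjusted p from 0.0141 to 0.31 over the 20).

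Ccr2, the receptor by which monocytes follow Ccl2, ran from 4.27 through a median of 4.52 to 4.97 in KO_UDCA and from 4.24 through 4.54 to 4.76 in WT_UDCA. It measured 5.62, 6.52, 5.38, 5.75 and 5.82 in KO_chow, against 4.48, 4.42, 4.64, 4.40 and 4.42 in WT_chow. The knockout mice on chow were above all others, with replicate 2 the highest. On chow it rose by 1.35 (SE 0.16, limma adjusted p = 3.57e-06), and the change in KO_UDCA relative to KO_chow was -1.25 (SE 0.15, limma adjusted p = 9.6e-06).

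Cx3cr1, the receptor for the membrane-bound chemokine Cx3cl1, differed from the other members in which knockout mice were highest. The level ran from 5.71 through a median of 5.84 to 5.99 in KO_UDCA and from 5.50 through 5.63 to 5.81 in WT_UDCA. In KO_chow the mice measured 6.52, 6.50, 6.09, 6.68 and 6.39, against 5.66, 5.73, 5.67, 5.75 and 5.67 in WT_chow. Replicate 4 was the highest KO_chow mouse, all 5 were above the other groups, and 4 of the 6 KO_UDCA mice were above every wild-type mouse. Cx3cr1 rose on chow by 0.74 (SE 0.10, limma adjusted p = 1.25e-05), and the change in KO_UDCA relative to KO_chow was -0.59 (SE 0.09, limma adjusted p = 0.000173).

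Several of the ligands and growth factors that draw in and feed these cells rose on chow. Of 13 measured, 7 rose on chow and 0 fell, with a median change of 0.53, and 5 fell in KO_UDCA relative to KO_chow. Ccl2, the ligand of Ccr2, averaged 4.45 in KO_UDCA, 6.64 in KO_chow and 4.39 in WT_chow, a rise on chow of 2.25 (SE 0.43, limma adjusted p = 0.00101). The KO_chow mice were widely spread in Ccl2, from 4.85 to 8.41 (SD 1.51). The lowest of them lay just above the highest WT_chow mouse (4.75) and below the highest WT_UDCA mouse (5.07). Ccl3, which attracts leukocytes, rose by 1.58 (SE 0.21), and Cx3cl1 by 0.86 (SE 0.12). In a fit without KO_chow replicates 2 and 5, 6 of the 13 were called higher and 4 were called lower under UDCA.

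Genes of a monocyte list rose as well, in 11 of 15 measured, and 0 fell. Whole liver RNA does not tell circulating cells from those in the tissue. Fcgr1 is also counted with the general macrophage markers. The largest changes were those of Chil3 (1.30, SE 0.35), F13a1 (1.24, SE 0.34) and Vcan (1.21, SE 0.25). The groups overlapped in all 3, unlike in Ccr2. Under UDCA 9 of the 15 fell relative to KO_chow. When KO_chow replicates 2 and 5 were left out, these counts were 4 and 3, and the rises of Chil3 and F13a1 were not called (limma adjusted p = 0.252 and 0.332). The rise of F13a1 also lost its call without KO_chow replicate 2, 3 or 5 alone, and that of Chil3 without replicate 5 alone. With only the compared groups fitted, neither rise was called (limma adjusted p = 0.107 for F13a1 and 0.0906 for Chil3). The mean level of the monocyte list was 5.09 to 6.20 in KO_chow, against 4.81 to 4.92 in WT_chow.

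Cd14, the co-receptor that hands bacterial lipopolysaccharide to Tlr4, ran from 5.60 through a median of 5.81 to 6.19 in KO_UDCA and from 5.16 through 5.60 to 5.91 in WT_UDCA. It measured 6.85, 9.50, 8.56, 6.62 and 9.23 in KO_chow, against 5.40, 5.63, 5.69, 5.58 and 5.57 in WT_chow. All KO_chow mice were above the others, and their SD was 1.34 against 0.11 in WT_chow. On chow Cd14 rose by 2.58 (SE 0.38, limma adjusted p = 6.05e-05) and the change in KO_UDCA relative to KO_chow was -2.28 (SE 0.36, limma adjusted p = 0.000206). Of 11 genes listed with Cd14, which include Toll-like receptors other than the lipopolysaccharide receptor Tlr4, 4 rose on chow and 0 fell. Tlr1 rose by 0.92 (SE 0.15), Tlr2 by 0.82 (SE 0.17) and Cd180, a Tlr4-like receptor, by 0.79 (SE 0.15). Tlr4 itself, named after its value was seen, changed by 0.26 (SE 0.12) and was not called (limma adjusted p = 0.165). The count called higher was 2 of 11 once KO_chow replicates 2 and 5 were left out, and Tlr2 was not among them (limma adjusted p = 0.0548).

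Itgax encodes the integrin CD11c and had the smallest SE relative to its change on chow. The level ran from 4.09 through a median of 4.37 to 4.63 in KO_UDCA and from 4.04 through 4.30 to 4.49 in WT_UDCA. In KO_chow the mice measured 5.84, 6.61, 6.09, 5.81 and 6.36, against 4.07, 4.26, 3.88, 4.34 and 4.10 in WT_chow. Every KO_chow mouse stood more than 1 unit above every other mouse. On chow Itgax rose by 2.01 (SE 0.14), or 4.03-fold (limma adjusted p = 4.89e-09), and the change in KO_UDCA relative to KO_chow was -1.77 (SE 0.14, limma adjusted p = 1.95e-08). Of 7 other leukocyte integrin subunits 3 rose on chow and 0 fell, namely Itgb2, the partner chain of CD11c (0.91, SE 0.15), Itgam (0.88, SE 0.19) and Itga4 (0.75, SE 0.13).

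Cd68, a glycoprotein of the macrophage lysosome, was the member whose groups overlapped. It ran from 7.39 through a median of 7.48 to 7.72 in KO_UDCA and from 7.40 through 7.56 to 7.81 in WT_UDCA. It measured 7.58, 9.32, 8.63, 7.65 and 9.14 in KO_chow, against 7.34, 7.59, 7.25, 7.39 and 7.53 in WT_chow. Replicates 1 and 4 of KO_chow lay among the mice of the other groups. The rise on chow was 1.05 (SE 0.23, limma adjusted p = 0.00346), and the change in KO_UDCA relative to KO_chow was -0.96 (SE 0.22, limma adjusted p = 0.00636). With KO_chow replicates 2 and 5 left out, these were 0.54 and -0.45 and neither was called (limma adjusted p = 0.074 and 0.165).

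Ctss, a cysteine protease of antigen-presenting cells, ran from 8.39 through a median of 8.64 to 8.81 in KO_UDCA and from 8.32 through 8.52 to 8.94 in WT_UDCA. It measured 9.07, 9.47, 9.07, 9.08 and 9.57 in KO_chow, against 8.41, 8.79, 8.41, 8.59 and 8.47 in WT_chow. The KO_chow mice were above all others, by a narrow margin. The rise on chow was 0.72 (SE 0.12, limma adjusted p = 0.000392), the smallest of the 10, and the change in KO_UDCA relative to KO_chow was -0.62 (SE 0.12, limma adjusted p = 0.00127). In a fit without KO_chow replicates 2 and 5, the fall under UDCA was -0.44 and was not called (limma adjusted p = 0.052). Of 19 other lysosomal genes, 5 rose on chow and 0 fell, with a median of 0.14, so most of this list was not called. Lgmn, an endopeptidase, rose by 0.81 (SE 0.16), Cstb, an inhibitor of cathepsins, by 0.76 (SE 0.17) and Ctsk, another cathepsin, by 0.67 (SE 0.15). Once KO_chow replicates 2 and 5 were left out, 3 of the 19 were called higher, and Ctsk was not among them (limma adjusted p = 0.0711). Of 10 MiT/TFE factors and their targets, 4 rose and 1 fell, and without KO_chow replicates 2 and 5 limma called 0 (6 at an unadjusted p below 0.05).

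**Figure D2:**
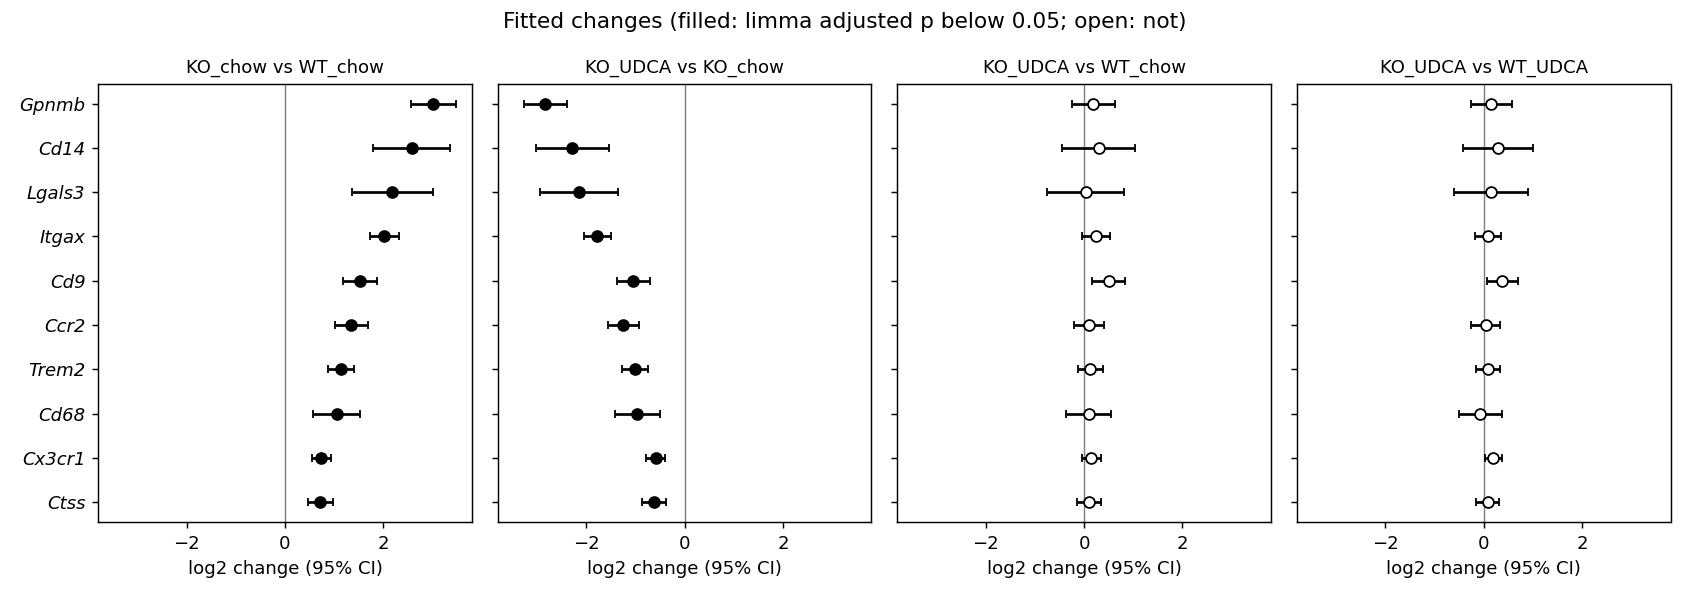
Fitted log2 change with its 95% interval (horizontal axis) for the 10 genes (vertical axis), for KO_chow over WT_chow, then for KO_UDCA over KO_chow, over WT_chow and over WT_UDCA. Filled points passed an adjusted p below 0.05. All 10 points are filled in the first and second panels and all are open in the panels to their right, where only the intervals of Cd9 in both and of Cx3cr1 against WT_UDCA lie clear of 0.

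In 9 of the 10 genes every KO_chow array lay above every WT_chow array, which held for 5.45% of all genes. In the same 9 genes every KO_UDCA array lay below every KO_chow array, as did 3.27% of all genes. An exact permutation test over mice, two-sided, gave these 9 genes p = 0.00794 in KO_chow against WT_chow, the smallest that 252 arrangements of 5 and 5 mice can give, and Cd68 p = 0.0159. In KO_UDCA against KO_chow the exact p was 0.00216 for the 9, the smallest that 462 arrangements allow, and 0.00866 for Cd68. For the 9 genes these values restate the separation of the groups given above and add no separate support. Over these 20 tests the adjusted values ran from 0.00481 to 0.0159. That adjustment covers the 10 members only, which were chosen with earlier results of these data known, and not all genes.

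The change under UDCA differed between the genotypes for most of the genes. The interaction, the change under UDCA in knockout mice minus that in wild-type mice, was negative and called in 9 of the 10 genes, against 2.07% of all genes called lower. It was -2.87 (SE 0.30) for Gpnmb, -1.92 (SE 0.19) for Itgax and -0.54 (SE 0.13) for Cx3cr1. Cd68, at -1.12 (SE 0.31), was not called (limma adjusted p = 0.0569). In wild-type mice the changes under UDCA ran from -0.12 to 0.16. The rise was absent in WT_chow, so the interaction largely repeats the fall in KO_UDCA, which was -2.84 for Gpnmb. Gpnmb, Itgax and Ccr2 averaged 4.14, 4.13 and 4.47 in WT_chow, below the median gene mean of 4.9, and the other members lay above it. Whether the genotypes respond differently to UDCA at equal starting levels was not tested. The interaction of Lgals3 was close to the threshold (limma adjusted p = 0.0432), as was that of Ctss (0.0448): leaving out 1 mouse in turn ended the call of Lgals3 for 19 of the 22 mice and that of Ctss for 14. With the run of sample numbers as a covariate, neither was called (limma adjusted p = 0.0529 and 0.0565), which left 7 of the 10. In a fit without KO_chow replicates 2 and 5, the interaction was called in 6 of the 10.

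The KO_chow mice differed from each other in a way that most members shared. Replicate 2 was the highest of the 5 in 7 members, replicate 5 in 2, and each was among the top 2 in 9. Cx3cr1 was the exception, with replicates 2 and 5 ranked 3 and 4. Relative to the WT_chow mean, replicate 2 was higher by 4.04 in Lgals3, 3.93 in Cd14 and 3.91 in Gpnmb. Replicate 4 was higher by 0.99 in Lgals3 and 1.05 in Cd14, but by 2.75 in Gpnmb and 1.68 in Itgax. Replicates 2 and 5 were also the arrays with the highest first principal component over all genes, and the part of that axis in these differences was not tested.

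**Figure D3:**
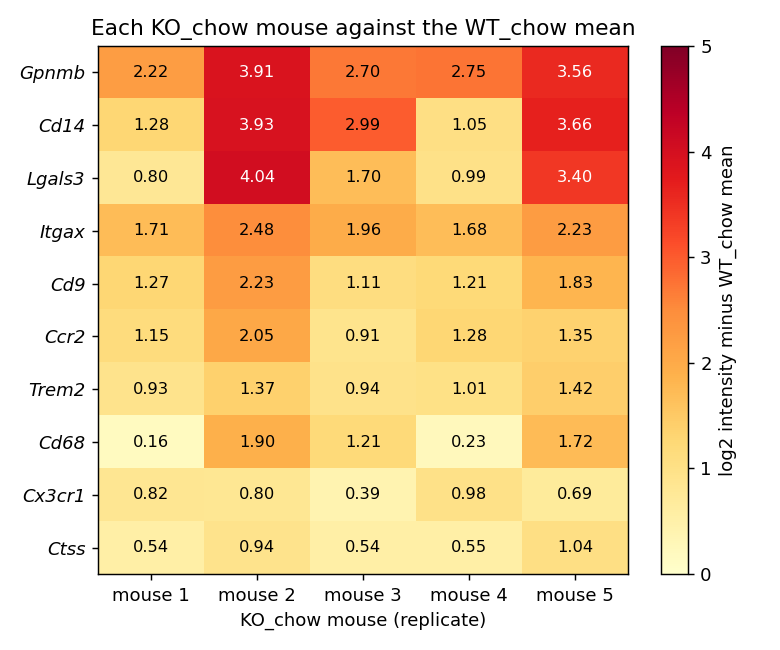
Log2 intensity of each gene (vertical axis) in each of the 5 KO_chow mice (horizontal axis) minus the WT_chow mean of that gene (n = 5), as number and colour. Mice 2 and 5 carry the highest values for Lgals3, Cd14 and Cd68, at 4.04 and 3.40, 3.93 and 3.66, and 1.90 and 1.72, whereas Cx3cr1 is highest in mouse 4 at 0.98.

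Other genes of scar-associated and lipid-associated macrophages rose with the members. Of 19 measured, 11 rose on chow and 0 fell, with a median of 0.67, and 11 fell in KO_UDCA relative to KO_chow. Mmp12, a macrophage elastase, averaged 5.33 in KO_UDCA, 9.87 in KO_chow and 4.88 in WT_chow, a rise on chow of 4.99 (SE 0.36, limma adjusted p = 4.89e-09). Lpl, a lipase, rose by 2.01 (SE 0.38) and Clec7a, the receptor dectin-1, by 1.88 (SE 0.19). When KO_chow replicates 2 and 5 were left out, the counts were 8 higher on chow and 9 lower under UDCA. Spp1, a further gene of this list, was not analysed here.

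Most general macrophage markers were not called. Of 17 measured, 5 rose on chow and 1 fell, with a median of 0.19, and the mean of the list was 7.11 to 7.47 in KO_chow, against 6.90 to 7.05 in WT_chow. Ms4a7 rose by 1.50 (SE 0.19), Cybb, a subunit of the phagocyte oxidase, by 0.81 (SE 0.12) and Fcer1g, an Fc receptor chain, by 0.62 (SE 0.13). Adgre1, which encodes F4/80, and Csf1r, the receptor of the growth factor CSF1, were named after their values were seen. They changed by 0.08 (SE 0.13) and -0.17 (SE 0.13) and were not called (limma adjusted p = 0.775 and 0.472). The list's counts were 2 and 0 once KO_chow replicates 2 and 5 were left out, and the rise of Fcer1g, then 0.39, was not called (limma adjusted p = 0.0581).

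Several markers of the resident Kupffer cells fell on chow. Of 11 measured, 5 fell on chow and 1 rose, with a median of -0.42, and 5 rose and 1 fell in KO_UDCA relative to KO_chow, where 5.03% of all genes were called higher. Cd163, a haemoglobin scavenger receptor, averaged 6.39 in KO_UDCA, 4.94 in KO_chow and 6.89 in WT_chow, a change on chow of -1.94 (SE 0.22, limma adjusted p = 1.67e-06). Fcna, a ficolin, fell by 0.93 (SE 0.13). Clec4f and Timd4, defining markers of resident Kupffer cells named after their values were seen, fell by 0.63 (SE 0.10) and 0.85 (SE 0.15). The list member that rose was C6, a complement component, by 0.91 (SE 0.17). With KO_chow replicates 2 and 5 left out, 4 fell and 1 rose on chow.

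Markers of several other cell types, but not of all, moved with the 10 genes. All 10 cholangiocyte markers rose on chow, with a median of 1.35 and list means from 5.79 to 6.59 in KO_chow against 4.59 to 4.75 in WT_chow, and all 10 fell in KO_UDCA relative to KO_chow. Tspan8, also counted with the tetraspanins, had the largest change of this list, Muc1 rose by 1.91 (SE 0.19) and Cd24a by 1.52 (SE 0.14). Of 10 stellate cell and fibroblast markers 7 rose, with list means of 7.81 to 8.12 in KO_chow, against 6.92 to 7.02 in WT_chow. Col1a1, a fibrillar collagen, rose by 2.16 (SE 0.18), Col3a1 by 1.75 (SE 0.17) and Lum by 1.66 (SE 0.15). Among immune lists, 7 of 9 general leukocyte markers rose (Cd52 by 0.93, SE 0.11) and 6 of 13 neutrophil markers (Retnlg by 1.06, SE 0.20). So did 3 of 13 dendritic cell markers, Klrd1, Siglech and Irf8, of which Irf8 changed least (0.41, SE 0.10). Of 14 T, NK and B cell markers 2 rose, Ncr1 (0.44, SE 0.12) and Cd8a. Among 19 alternatives, 2 ended the call of Ncr1 and 9 that of Cd8a. Over all genes 7.69% were called higher on chow. Their list means ran from 6.69 to 7.21, 4.08 to 4.71, 5.37 to 5.48 and 4.72 to 4.87 in KO_chow, against 6.35 to 6.55, 3.95 to 4.00, 5.10 to 5.35 and 4.75 to 4.96 in WT_chow. In KO_UDCA relative to KO_chow, 5, 5, 2 and 0 of these markers were called lower. The T, NK and B cell list did not share the direction of the 10 genes. Its median change was -0.048 on chow and 0.134 in KO_UDCA relative to KO_chow, where 1 marker was called higher. In a fit without KO_chow replicates 2 and 5, the counts that rose were 9 of 10 for cholangiocytes, 7 of 10 for stellate cells and fibroblasts, 3 of 9 for leukocytes, 1 of 13 for neutrophils, 0 of 13 for dendritic cells (5 at an unadjusted p below 0.05) and 1 of 14 for T, NK and B cells. Endothelial markers did not share the direction of the 10 genes either. Of 8 measured, 1 rose and 2 fell on chow, with a median of -0.24, and 3 rose and 0 fell in KO_UDCA relative to KO_chow. Lyve1, a hyaluronan receptor, rose on chow by 0.72 (SE 0.23), and the changes of Ehd3 and Oit3 were -0.78 (SE 0.23) and -0.51 (SE 0.17). Of 20 alternatives, 8, 6 and 12 ended the call on chow of Lyve1, Ehd3 and Oit3, most of them by leaving out a single mouse. The endothelial list means ran from 7.82 to 8.04 in KO_chow, against 7.92 to 8.30 in WT_chow. Leaving out KO_chow replicates 2 and 5, limma called 0 of the 8 in either comparison (2 and 4 at an unadjusted p below 0.05). No value in the table was 0, the lowest intensity being 1.66. The part of these cell types in the levels of the 10 genes was not tested.

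**Figure D4:**
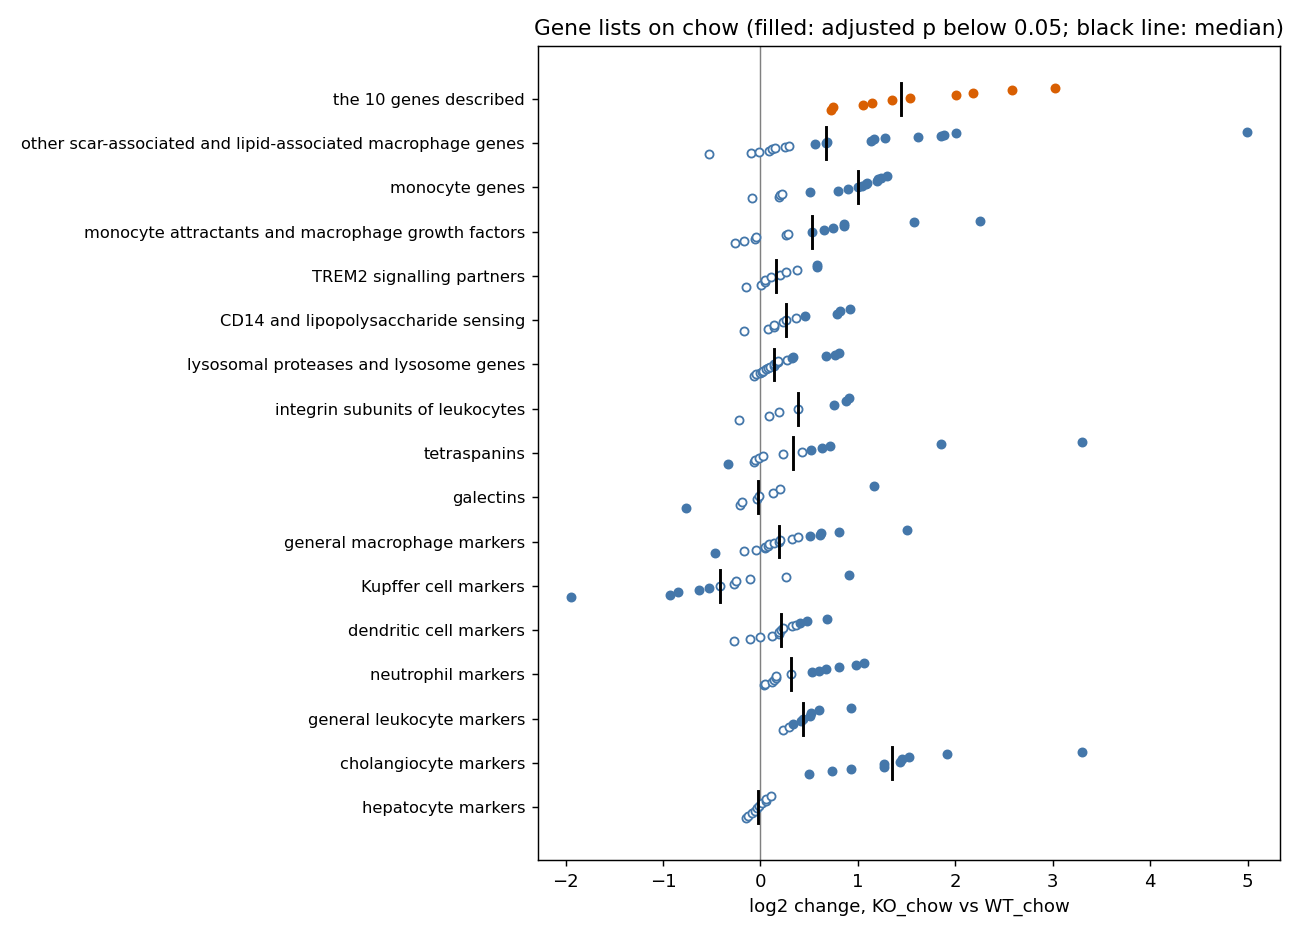
Log2 change in KO_chow vs WT_chow (horizontal axis) of every measured gene of 17 lists (vertical axis). Each point is a gene, filled where its adjusted p was below 0.05, and the black line is the median of the list. The 10 genes described lie between 0.72 and 3.02, the cholangiocyte markers have a median of 1.35, the general macrophage markers of 0.19 and the Kupffer cell markers of -0.42.

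The genes whose levels followed each member most closely over the 22 arrays are a description, since the arrays share their 4 groups and the KO_chow mice set most of the range. Pearson's r lay between 0.932 and 0.98 for the 3 closest genes outside the 10 of every member; the members themselves were left out of this choice, and Itgax stood between the first and the next of the genes given for Trem2. Gpnmb was followed by Ly6d, Mmp12 and Clec7a, Trem2 by Alcam, Col1a1 and Emp1, and Itgax by Col1a1, Emp1 and Mmp12. Lgals3 was followed by Wdr1, Rab31 and Myo9b, Cd14 by Sptlc2, Vcl and Itga6, and Cd68 by Lgmn, Ier3 and Cd44. Cd9 was followed by Lhfp, Tagln2 and Mtmr11, Ccr2 by Anxa3, Ankrd1 and Myof, Cx3cr1 by Bicc1, Timp2 and Mmp7, and Ctss by Cyrib, Arpc2 and Cybb. Ly6d rose on chow by 4.20 (SE 0.36), Tagln2 by 2.00 (SE 0.22) and Mmp7 by 1.90 (SE 0.21).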

How the data were processed

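Total liver RNA of 22 mice was measured, 1 array per mouse. Per the labels and the submitters' processing notes, the values that the authors deposited are intensity values from RMA (version not given), put back on the unlogged scale. No genome build is named by the labels used here. Replicates are separate mice per the series' design text, and a replicate number only names a mouse.

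Of 24973 probe sets, 24015 had 1 gene symbol in the platform annotation and 958 had none and were left out. For the 4 symbols on several probe sets the one with the highest mean was kept, which left 24011 genes, 23920 of them matched to RefSeq. Intensities were turned into log2 without a pseudocount or filter. Array medians ran from 28.7 to 31.1.

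Group means were estimated over the 22 arrays by limma 3.58.1 (R 4.3.3), with Benjamini-Hochberg adjustment over all genes in each of 6 comparisons. The fit was tested on simulated data with the same SD in every group, which cannot show how it performs with the wider spread of KO_chow. Gene lists were described by counts and medians. The members and the lists were chosen with earlier results of these data known. The text names the 10 members, up to 3 called genes per list with the largest change on chow, the 3 genes outside the 10 most like each member, and Cyp2c70; a further gene of the naming rule is not reported here. Other names are marked where they stand, or were kept as background. Alternatives covered normalisation, an added constant, a filter on dim genes, the variance model, the arrays fitted and the order of sample numbers. Within-run values, exact tests and list counts without KO_chow replicates 2 and 5 were added after the data were seen.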

Additional observations from a re-analysis of the deposited data

Results flagged for a closer look

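Among 40 combinations of a member and a group, 1 held a mouse far from the rest of its group. Ctss measured 8.94 in WT_UDCA replicate 6, against 8.32 to 8.54 in the other 5 mice of that group. Chance alone sets about 1 in 20 such groups apart. The change under UDCA differed between knockout and wild-type mice in 9 members by the limma interaction term. The change in knockout mice minus the change in wild-type mice was -2.87 for Gpnmb, -1.05 for Trem2, -1.16 for Cd9, -2.03 for Lgals3, -1.30 for Ccr2, -2.28 for Cd14, -1.92 for Itgax, -0.54 for Cx3cr1 and -0.63 for Ctss. These rest on the same KO_chow mice as both main comparisons. The rise was absent in WT_chow, so they largely repeat the fall in KO_UDCA.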

How the results depend on the processing

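In KO_chow against WT_chow and KO_UDCA against KO_chow every member kept its direction under every alternative. All 10 stayed called when any 1 mouse was left out. The counts of members called were 9 and 8 without KO_chow replicates 2 and 5, and 7 of the 7 that a filter on dim genes kept, which left out Gpnmb, Ccr2 and Itgax. With only the compared groups fitted, the fall of Cd68 under UDCA was not called (limma adjusted p = 0.0575). The interaction was called in 6 members without KO_chow replicates 2 and 5, where Cd14 (limma adjusted p = 0.0621), Cx3cr1 (0.0968) and Ctss (0.278) were not. Leaving out WT_chow replicate 1 or KO_chow replicate 2 ended the call of Cx3cr1, and leaving out KO_chow replicate 1 or 4 brought that of Cd68, as did the filter on dim genes (limma adjusted p = 0.0317). The interaction of Lgals3 was lost for every mouse left out except KO_chow replicates 1, 3 and 4. Of 632 values of members not called, 24 changed sign.

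Over all genes, the counts without KO_chow replicates 2 and 5 were 1089 in KO_chow vs WT_chow, 673 in KO_UDCA vs KO_chow and 207 in the interaction, against 3295, 2701 and 642. With only the compared groups fitted they were 2008, 1454, 2 in KO_UDCA vs WT_UDCA and 1 in WT_UDCA vs WT_chow. KO_UDCA vs WT_chow gave 10 with trend and robust variance and 13 with array weights, against 6, and KO_UDCA vs WT_UDCA gave 1 with the run of sample numbers as a covariate, against 4. Leaving out 1 mouse in turn gave 1632 to 3201 calls in KO_UDCA vs KO_chow, 301 to 1219 in the interaction, 1 to 4 in KO_UDCA vs WT_UDCA, 3 to 10 in KO_UDCA vs WT_chow and 0 to 1 in WT_UDCA vs WT_chow. The cause was not tested. The lowest interaction count came without KO_chow replicate 2, and the lowest in KO_UDCA vs KO_chow without KO_chow replicate 5.

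The sample numbers form 2 runs. Within them, member differences ran from 0.63 to 2.97 and from 0.68 to 3.65 in KO_chow vs WT_chow, and from -2.71 to -0.50 and from -3.58 to -0.40 in KO_UDCA vs KO_chow. The second run held 1 KO_chow mouse, replicate 5, and 1 KO_UDCA mouse. Its differences in KO_UDCA vs KO_chow are thus those of 1 mouse against 1 mouse. With the run as a covariate the interaction was called in 7 members, and Lgals3 (limma adjusted p = 0.0529) and Ctss (0.0565) were not. No paired analysis was possible because the labels give no number shared between groups. Of 3129 values of 77 other named genes under alternatives, 130 lost their call and 3 gained one.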
